A study of Mus musculus with 15 samples.

Results

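Cells that divide switch on a shared programme of genes, and 45 of its best known members are described here in mouse oligodendrocyte precursor cells (OPCs), the dividing cells of the brain that give rise to oligodendrocytes (OLs), and in the OLs grown from them. The members were chosen by symbol and all 45 were found among the 45706 genes of the expression tables. They are 17 genes of S phase, the stage of DNA copying, 27 genes of mitosis, and Ccnd1, the D cyclin that drives cells through G1. The study asked what the loss of SRF does to oligodendrocyte lineage cells. SRF, the serum response factor, binds DNA at cytoskeletal and immediate-early genes.

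In a cell that enters S phase, E2F factors are freed from the retinoblastoma protein and turn on the genes of the replication machinery, whose promoters carry E2F sites. Genes of mitosis are turned on later, in G2, through CCAAT boxes bound by NF-Y and through CHR elements (cell cycle genes homology region) bound by the DREAM and MuvB complexes, which hold the same genes silent in resting cells. OPCs divide in culture when given mitogens, and leave the cell cycle as they differentiate into OLs.

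All cultures came from mice with floxed alleles of Srf (SRF-floxed/floxed), whose OPCs were purified from brain by immunopanning, capture on antibody-coated dishes. OPCs received an adeno-associated virus (AAV) on day 3, with Cre in the SRF-KO OPC group (3 libraries) and with a deleted Cre in the control OPC group (4 libraries), and were frozen 48 hours later. For OLs a lentivirus was added on day 6, with Cre-IRES-GFP in the SRF-KO OL group (4 libraries) and with GFP alone in the control OL group (4 libraries), and cells were frozen on day 3 of differentiation. The AAV constructs used a CMV promoter. Every group carried the floxed alleles and a virus, and no group had Cre without floxed alleles. The animals' age and sex, and whether replicates came from separate animals or cultures, are not given in the sources used here, so p-values measure the spread between these samples, which may be technical.

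Library totals ran from 8964310 to 16026511 expected counts in OPCs and from 4303739 to 13139258 in OLs, and the smallest 2 were SRF-KO OL replicates 3 and 4. Mitochondrial transcripts took 4.65% to 5.73% of counts in OPCs and 9.08% to 14.2% in OLs, the highest in SRF-KO OL replicate 4. Srf (GRCm38 chromosome 17, 46548329 to 46556175, minus strand) had 7.90, 5.57, 9.65 and 8.33 CPM (counts as a share of the library, times a fixed number, with TMM factors) in control OPCs and 0.221, 0.196 and 0.215 in SRF-KO OPCs. It had 7.89, 8.77, 9.32 and 7.11 CPM in control OLs and 3.04, 2.71, 2.05 and 4.33 in SRF-KO OLs. In both stages every knockout library was below every control, with a log2 fold change of -5.16 in OPCs (adjusted p = 5.69e-04) and -1.45 in OLs (adjusted p = 0.0224, both edgeR quasi-likelihood). The treatment label of the SRF-KO OLs names the Cre lentivirus but ends in the word control, and the sample titles were followed. CPM values in this paragraph are scaled within a stage, so those of OPCs and OLs are on separate scales. Summed OL markers (Mbp, Mog and 5 others) came to 423 to 497 CPM in OPC libraries and 9287 to 23672 in OL libraries. Of the 7 OL markers, 1 to 4 were at 0 in each OPC library. Astrocyte markers (7 genes led by Gfap) summed to 1114 to 1469 CPM in OPCs, where 1 of the 7 was at 0 in every library. They summed to 8517 to 33950.1 CPM in OLs, where none was at 0.

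The promoters of the 2 sets of members differ in the elements described above. RefSeq promoter windows (GRCm38.p6, 250 bases before to 50 after the start) were matched by symbol for 37 of the 45 members, 23 of mitosis and 14 of S phase. The members without a window were Ccna2, Aurkb, Kif20a, Tpx2, Mcm4, Ccne2, Gins2 and Ccnd1. Exact matches were searched on both strands for CCAAT, for the CHR letters TTTGAA, and for 4 E2F strings, TTTGGCGC, TTTCCCGC, TTTGCCGC and TTTCGCGC, which can overlap each other on opposite strands. A gene with several windows counts once if any window holds the letters. The stretches below, 160 bases each and upstream of the start, show both patterns, with every match in capitals. The first 4 are mitotic genes and the last 2 are subunits of the MCM helicase.
Cdk1: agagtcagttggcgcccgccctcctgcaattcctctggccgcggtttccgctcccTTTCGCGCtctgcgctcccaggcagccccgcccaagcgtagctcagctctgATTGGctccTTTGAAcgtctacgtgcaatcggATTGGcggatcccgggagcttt
Cdc20: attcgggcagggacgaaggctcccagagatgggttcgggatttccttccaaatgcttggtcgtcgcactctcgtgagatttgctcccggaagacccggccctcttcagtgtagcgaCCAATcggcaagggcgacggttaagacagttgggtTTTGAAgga
Kpna2: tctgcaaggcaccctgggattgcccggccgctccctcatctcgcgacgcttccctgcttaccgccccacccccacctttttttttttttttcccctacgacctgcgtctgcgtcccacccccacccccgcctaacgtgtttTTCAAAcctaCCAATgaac
Top2a: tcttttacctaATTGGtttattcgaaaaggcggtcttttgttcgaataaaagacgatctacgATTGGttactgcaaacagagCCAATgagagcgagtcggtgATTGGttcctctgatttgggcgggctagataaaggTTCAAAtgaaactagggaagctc
Mcm6: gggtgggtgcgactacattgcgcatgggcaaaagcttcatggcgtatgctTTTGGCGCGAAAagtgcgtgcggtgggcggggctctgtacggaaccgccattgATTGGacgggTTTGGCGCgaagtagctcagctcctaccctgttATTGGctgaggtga
Mcm5: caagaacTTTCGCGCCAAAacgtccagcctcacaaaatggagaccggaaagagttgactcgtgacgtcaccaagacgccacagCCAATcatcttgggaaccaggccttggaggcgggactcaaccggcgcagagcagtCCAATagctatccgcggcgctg

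They lie at chr10:69352939-69353098 (minus strand) for Cdk1, chr4:118437353-118437512 (minus strand) for Cdc20, chr11:106999542-106999701 (minus strand) for Kpna2, chr11:99024190-99024349 (minus strand) for Top2a, chr1:128359706-128359865 (minus strand) for Mcm6 and chr8:75109349-75109508 (plus strand) for Mcm5, and none overlaps an annotated exon. Cdk1 encodes the kinase that starts mitosis. Its stretch holds the E2F string TTTCGCGC, and CHR letters between 2 CCAAT boxes read on the other strand (ATTGG). Cdc20, which activates the anaphase-promoting complex, holds a CCAAT box followed by CHR letters close to the start. In Kpna2, the nuclear import carrier importin alpha, the CHR letters stand beside the CCAAT box, on the opposite strand (TTCAAA). Top2a, the topoisomerase that untangles sister chromatids, holds 4 CCAAT boxes and 1 CHR match in the stretch. Mcm6 and Mcm5 hold CCAAT boxes and E2F strings that overlap on the 2 strands, and no CHR letters.

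CHR letters were in the windows of 18 of 23 mitotic members (78.26%) and in 1 of 14 S-phase members (7.143%, Mcm2), against 20.23% of all 27025 genes with a window. An E2F string was in 1 of 23 mitotic members (4.348%, Cdk1) and in 7 of 14 S-phase members (50%), against 2.605% of all genes. The 7 were Mcm3, Mcm5, Mcm6, Mcm7, Cdc6, Cdt1 and Uhrf1. CCAAT boxes were common in both sets, with 20 of 23 mitotic (86.96%) and 9 of 14 S-phase members (64.29%) against 41.06% of all genes. A CCAAT box and CHR letters in the same gene were found for 17 mitotic members (73.91%) against 8.973% of all genes. Wider lists of 82 other mitotic and 62 other S-phase genes had the same order, with CHR letters in 60.87% of 69 mitotic windows and E2F strings in 42.86% of 49 S-phase windows. These are matches of letters and say nothing of binding, and the RNA data hold no measure of these elements.

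**Figure D1:**
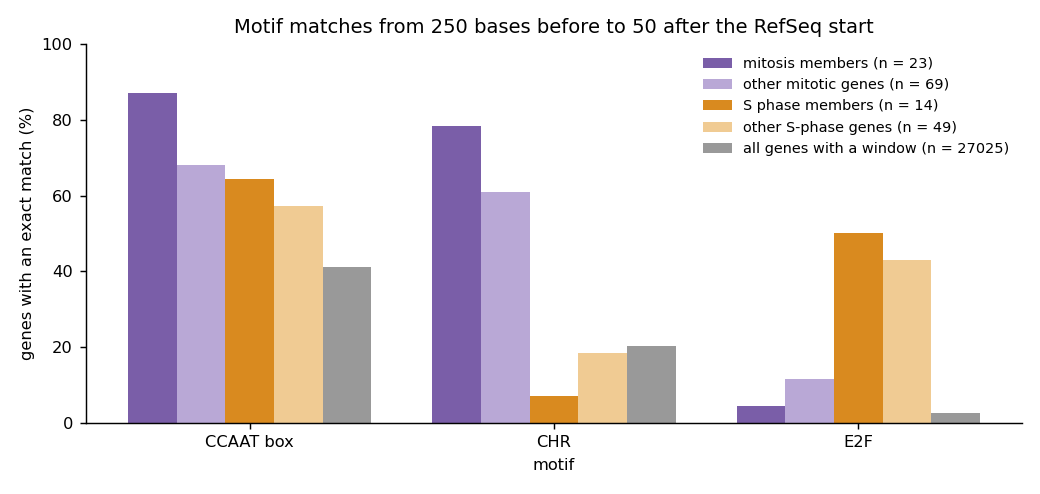
Share of genes (%, vertical axis) with an exact match to each motif (horizontal axis) in the RefSeq promoter window, for the mitotic and S-phase members, the wider lists and all genes with a window (bars, with the number of genes in the legend). CHR bars are tall for mitotic members (78.26%) and low for S-phase members (7.143%), and E2F bars are the other way round (4.348% and 50%).

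In OLs the whole programme was far below its level in OPCs. All 45 members fell from control OPCs to control OLs, against 37.1% of the 15027 genes tested that were called lower (edgeR, adjusted p under 0.05). All 45 also fell from SRF-KO OPCs to SRF-KO OLs, against 28.9% of 15102 genes called lower. The summed CPM of the mitotic members was 6.08% of the OPC level in control OLs and 8.07% in SRF-KO OLs. For the S-phase members the share was 7.52% in controls and 8.74% in knockouts, and for Ccnd1 it was 7.23% and 9.15%. Median log2 fold changes in controls were -3.84 for mitosis and -3.51 for S phase, and in knockouts -3.46 and -3.27, beside 0.10 and 0.12 over all genes tested. In bulk RNA, fewer dividing cells and less RNA per dividing cell cannot be told apart. Stage is confounded with the virus and with the counting: gene lengths listed in the OPC tables are those of spliced transcripts and in the OL tables those of genomic spans. For the members the OL length was 1.16 to 10.2 times the OPC length (median 4.54), and the part of this in the fall was not tested. CPM values in the next 3 paragraphs are scaled over all 15 libraries.

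Among the mitotic members the largest fall was that of Kpna2, with 789, 855, 820.4 and 821 CPM in control OPCs and 15.7, 19.3, 15.5 and 17.3 in control OLs. In SRF-KO OPCs it had 729, 1024 and 747 CPM and in SRF-KO OLs 22, 19.7, 19.9 and 18.4. Its mean in controls was 48.4-fold lower in OLs (log2 -5.58, SE 0.12, adjusted p = 2.34e-12 by edgeR), and in knockouts the log2 fold change was -5.37. Plk1, the kinase of mitotic entry and spindle assembly, went from 205 ± 11.6 CPM to 7.88 ± 0.890 in controls (SD, n = 4 each), a log2 fold change of -4.71. Ccnb1, the B cyclin that activates CDK1, went from 595 ± 29.7 to 22.6 ± 3.70 CPM (log2 -4.70), and its partner Cdk1 from 321 ± 17.4 to 21 ± 3.56 CPM (log2 -3.93). Cdc20 had 309, 303, 300.4 and 265 CPM in control OPCs and 10.8, 12.4, 11.5 and 11.7 in control OLs, with a log2 fold change of -4.65. Bub1, a kinase of the spindle checkpoint, fell by 4.41 in controls and by 4.23 in knockouts on the log2 scale. For each of the 45 members every OL library lay below every OPC library, against 34.6% of genes tested in controls and 31.0% in knockouts.

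The proliferation marker Mki67 had the smallest fall of the mitotic members in controls. It had 237, 175, 137 and 164 CPM in control OPCs and 20.3, 23, 23.1 and 30.3 in control OLs, a log2 fold change of -2.87 (SE 0.17). Its level varied more between control OPC libraries than that of Top2a, which had 604, 609, 614 and 602 CPM in them and 33.9, 42.3, 45.1 and 52.7 in control OLs (log2 -3.79). By role, the CDK1 group fell by a median of 3.88 on the log2 scale in controls, the kinases by 4.00, the kinesins by 3.84, the centromere and passenger proteins by 3.83 and the spindle assembly proteins by 3.82. The partners of the anaphase-promoting complex, Cdc20 and Ube2c, fell by 4.65 and 4.20.

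Among the S-phase members the largest fall was that of Rrm2, the regulated subunit of ribonucleotide reductase, which makes deoxynucleotides. It had 985, 973, 1088 and 1025 CPM in control OPCs and 48.1, 50.5, 48.3 and 46.7 in control OLs, 21-fold lower on average (log2 -4.39, SE 0.10, adjusted p = 2.52e-12 by edgeR). Uhrf1, which keeps DNA methylation through replication, went from 240.2 ± 4.48 to 12.8 ± 0.972 CPM in controls (SD, n = 4 each, log2 -4.22). The 6 MCM subunits, which form the replicative helicase, fell by 3.00 (Mcm7) to 4.17 (Mcm5) on the log2 scale. Mcm2 had 335, 318, 358 and 320.1 CPM in control OPCs and 24.2, 23.5, 22.9 and 19.8 in control OLs. Pcna, the sliding clamp of the polymerases, went from 459 ± 20.3 to 45 ± 4.11 CPM (log2 -3.34). Cdc6, which loads the helicase, went from 83.2 ± 17.8 CPM in SRF-KO OPCs (SD, n = 3) to 4.13 ± 1.59 in SRF-KO OLs (SD, n = 4), a log2 fold change of -4.26. Gins2, of the GINS complex at the fork, had the smallest fall of all members, -2.50 in controls and -2.48 in knockouts. Ccnd1 had 2064, 2042, 2014 and 1850.1 CPM in control OPCs and 146, 156, 133 and 141 in control OLs (log2 -3.78). Other G1 genes fell by less: all 5 of Ccnd2, Ccnd3, Cdk4, Cdk6 and E2f3 were called lower, with log2 values from -1.73 to -0.79 in controls, and whether these differ from Ccnd1 was not tested.

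**Figure D2:**
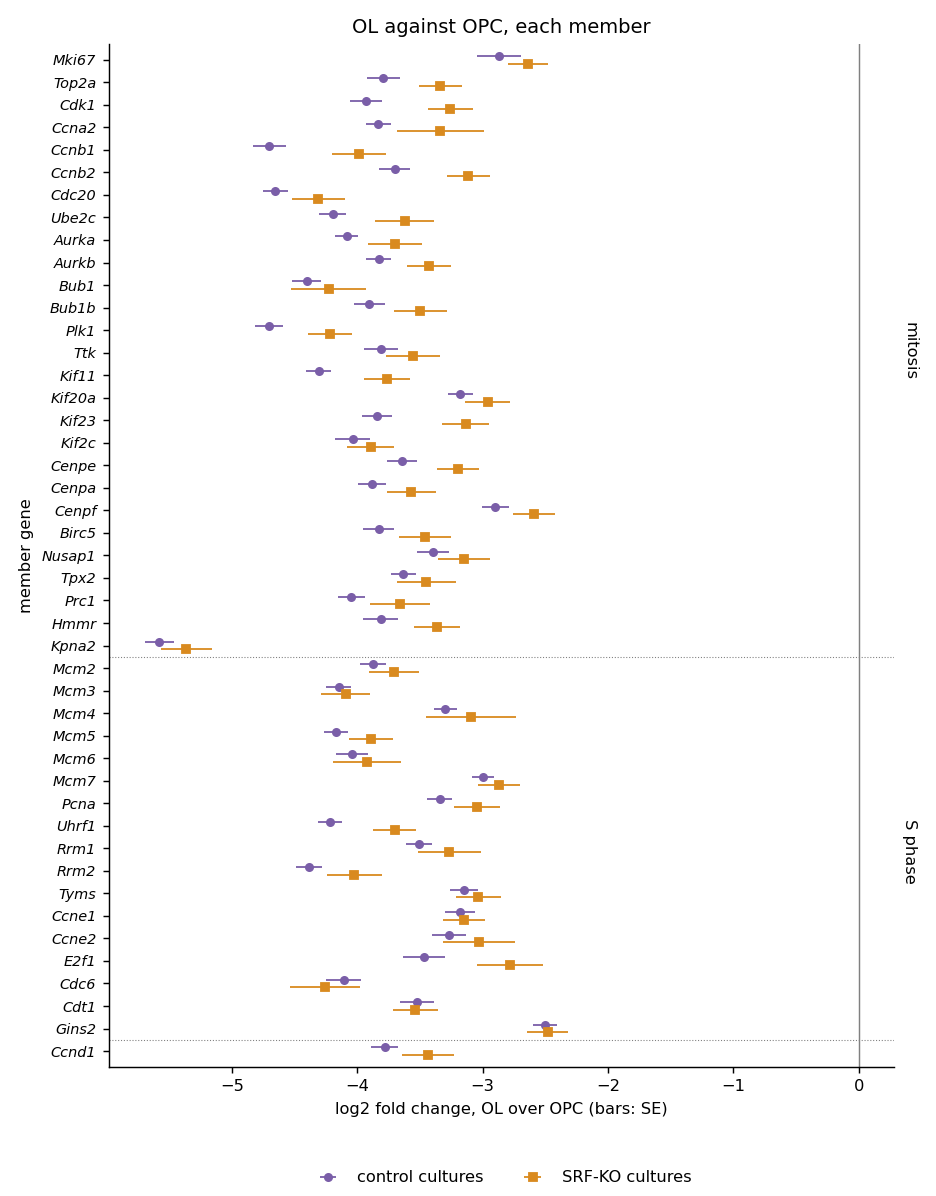
Log2 fold change of each member from OPC to OL (horizontal axis, bars are SE) in control cultures (circles) and SRF-KO cultures (squares), with genes ordered by role on the vertical axis. All points lie left of 0, from -5.58 (Kpna2) to -2.50 (Gins2) in controls.

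Of the wider lists, all 62 other S-phase genes and 80 of 82 other mitotic genes were called lower in control OLs, with medians of -3.14 and -3.46. The others were Pttg1, the anaphase inhibitor securin, which was called higher (log2 0.52, adjusted p = 0.00687 by edgeR), and Cenpp, which did not pass (log2 0.41). Scaled on genes whose listed length was the same in both kinds of table, the median of all genes in controls moved to -2.26 and those of the members to -6.20 for mitosis and -5.87 for S phase. All 45 members were called lower under that scaling too. Levels between genes can be set side by side within a stage as TPM, a unit that allows for transcript length. In control OPCs Ccnd1 had 816 to 952 TPM, Rrm2 693 to 921, Ube2c 664 to 710.1, Kpna2 590.2 to 742, Pcna 485 to 624 and Cdk1 471 to 598, and each overlapped the next in this order of means. Cenpe, a kinesin of the kinetochore, had 19.7 to 21.9 TPM and E2f1 18.7 to 23.8, the lowest of the members by their means.

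In OPCs no member passed the test between SRF knockout and control. The count called was 0 of 45, against 9 of 13271 genes tested (0.0678%, edgeR, adjusted p under 0.05), and DESeq2 also called 0. At an unadjusted p under 0.05, 4 mitotic members and 1 S-phase member were lower and none was higher, against 6.33% of all genes lower and 5.57% higher. Most estimates were slightly negative, 22 of 27 for mitosis (median log2 -0.08), 14 of 17 for S phase (median -0.07) and Ccnd1 (-0.04), against a median of -0.00 over all genes. The standard errors of the members ran from 0.06 to 0.19. CPM values from here on are scaled within a stage.

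The 4 mitotic members were Ccna2, Kif11, Plk1 and Cdk1. Ccna2, cyclin A2, which works in S phase and mitotic entry, had 563, 545, 595 and 589 CPM in control OPCs and 499, 459 and 496 in SRF-KO OPCs. All knockout libraries were below all controls, with a log2 fold change of -0.24 (SE 0.07, adjusted p = 0.262 by edgeR). Kif11, the kinesin that pushes spindle poles apart, had 234, 228, 246 and 241 CPM in controls and 215, 193 and 194 in knockouts, with a log2 fold change of -0.24 (adjusted p = 0.293 by edgeR). Plk1 had 209.9, 220.2, 216 and 243 CPM in controls and 159, 195 and 199.6 in knockouts (-0.27). Cdk1 had 361, 349, 357 and 325 CPM in controls and 291, 315 and 302 in knockouts (-0.20). For all 4 the lowest control lay above the highest knockout. In all 7 mitotic and 3 S-phase members had such groups without overlap, the others being Top2a, Ccnb1, Tpx2, Mcm7, Pcna and Uhrf1, against 6.25% of all genes.

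Of the S-phase members the smallest p was that of Uhrf1, with 255, 267, 259 and 262 CPM in control OPCs and 230.2, 203 and 221 in SRF-KO OPCs (log2 -0.26, SE 0.08, adjusted p = 0.263 by edgeR). Pcna had 492, 488, 527 and 483 CPM in controls and 453, 439 and 462 in knockouts, without overlap (log2 -0.14). Mcm7 likewise did not overlap, with 298 ± 7.40 CPM in the 4 control OPC libraries and 275 ± 7.07 in the 3 SRF-KO OPC libraries (mean ± SD). E2f1, the factor of the E2F sites, had 37, 37.1, 38.3 and 42.3 CPM in controls and 39.8, 20.3 and 33.3 in knockouts. Its lowest value was in knockout replicate 2, while replicate 1 lay among the controls. Other standard markers overlapped between the groups. Mki67 had 255, 189, 148 and 181 CPM in controls and 179, 225 and 215 in knockouts, a log2 fold change of 0.10, which was -0.01 without control replicate 3. Mcm2 had 361 ± 19.4 CPM in controls and 334 ± 11.6 in knockouts. Ccnd1 had 2223, 2208, 2180.2 and 2034 CPM in controls and 2239, 1818 and 2238 in knockouts, with the lowest value in replicate 2, and its estimate turned from -0.04 to 0.05 without that library.

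The summed mitotic level was 7074, 7104, 7164 and 6983 CPM in control OPCs and 6289, 7122 and 6534 in SRF-KO OPCs. Replicate 2 of the knockouts thus lay within the control range and the other 2 below it. For S phase the sums were 5129.8, 5181, 5584 and 5372 in controls and 4972, 5174 and 4969 in knockouts, where replicate 2 again lay among the controls. Over the group means the knockout sums were 93.9% of control for mitosis and 94.8% for S phase. Summed OPC markers in that replicate were 4932 CPM, against 6389 and 6431 in the other knockouts and 6594 to 6939.9 in controls. Summed astrocyte markers were 1353 to 1469 CPM in the 3 knockouts and 1114 to 1231 in controls, without overlap. All 6 tested were positive (median log2 0.30), 4 at an unadjusted p under 0.05 and 0 called, against 5.57% of all genes higher at that p. The OPC markers had 6 of 8 estimates negative (median log2 -0.16), 2 at an unadjusted p under 0.05 and 0 called, against 6.33% of all genes lower. The part of these markers in the result was not tested. Without SRF-KO OPC replicate 2, 26 of 27 mitotic estimates were negative (median log2 -0.12) and 16 of 17 for S phase (median -0.08). Then 0 members were called, with 8 mitotic and 1 S-phase member lower at an unadjusted p under 0.05, against 612 of 13308 genes. With each library left out in turn, the median ran from -0.12 to -0.04 for mitosis and from -0.09 to -0.03 for S phase. Both were smallest in size without SRF-KO OPC replicate 1. The wider lists also held 0 calls in OPCs, with medians of -0.11 for mitosis and -0.08 for S phase, and 15 of 82 mitotic genes (18.3%) and 6 of 62 S-phase genes (9.68%) lower at an unadjusted p under 0.05, against 6.33% of all genes. Their smallest p values belonged to Gas2l3 (log2 -0.37, adjusted p = 0.219 by edgeR) and Atad2 (-0.30, adjusted p = 0.256).

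**Figure D3:**
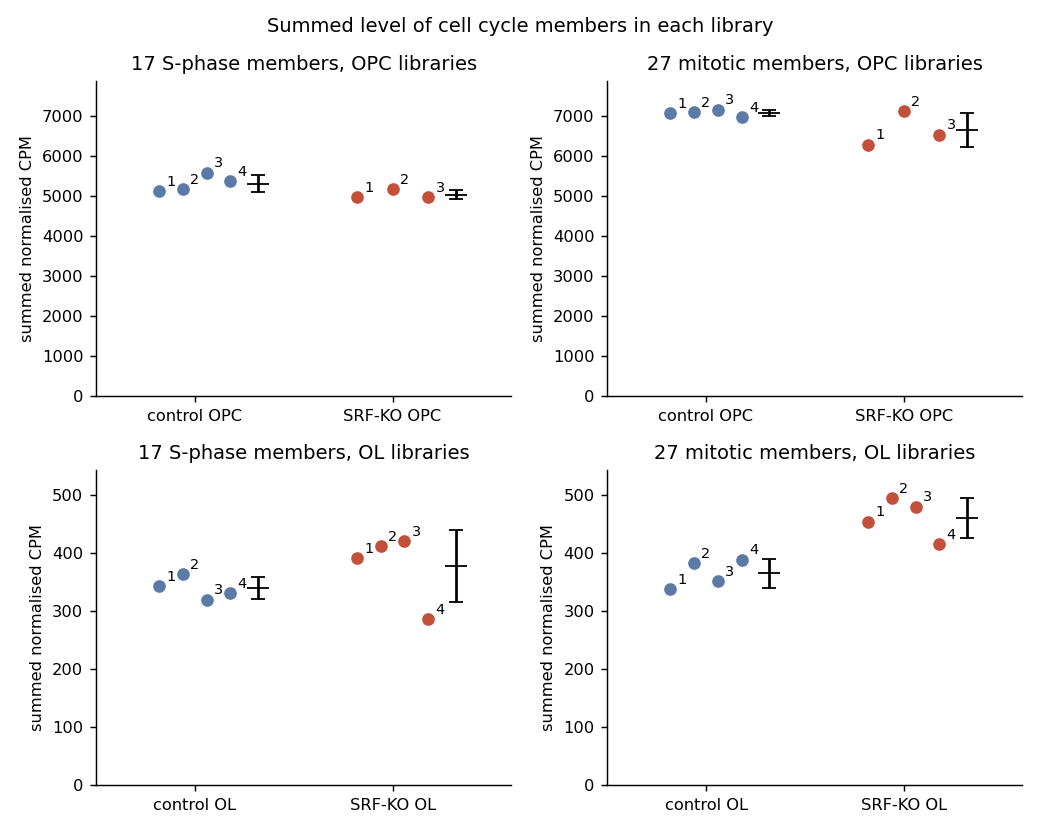
Summed normalised CPM (vertical axes, from 0) of the S-phase members (left) and mitotic members (right) in each OPC library (top) and OL library (bottom). Points are libraries numbered by replicate, and bars are the mean with its SD. SRF-KO OL mitotic sums, 415 to 494, lie above the controls, 337 to 388.

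In OLs the mitotic members were higher in SRF knockouts than in controls in all 27 estimates, but no member passed the test with all libraries. The count called was 0 of 45, against 45 of 15193 genes tested (0.296%, edgeR, adjusted p under 0.05), and DESeq2 also called 0. At an unadjusted p under 0.05, 11 mitotic members and 0 S-phase members were higher and none was lower, against 5.84% of all genes higher and 5.73% lower. Median log2 fold changes were 0.34 for mitosis and 0.16 for S phase, where 15 of 17 estimates were positive, against 0.02 over all genes. Scaled by library totals, the median of all genes moved to 0.24 and the members' medians to 0.54 and 0.38. The levels are low: the members' counts in a library went down to 10.

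The smallest p was that of Ccnb1, with 18.1, 25, 17.7 and 22.2 CPM in control OLs and 30.9, 38.8, 34.7 and 22.4 in SRF-KO OLs. Knockout replicates 1 to 3 lay above every control and replicate 4 within the control range, and the log2 fold change was 0.61 (SE 0.18, adjusted p = 0.231 by edgeR). Ccnb2, the other B cyclin, had 9.66, 10.4, 6.42 and 9.62 CPM in controls and 12.2, 11.8, 14.2 and 16.4 in knockouts (log2 0.56, adjusted p = 0.263). All its knockout libraries were above all controls. The same held for Aurkb, the kinase of the chromosomal passenger complex (12, 13.4, 10.5 and 11.9 against 13.6, 17.3, 15.2 and 16 CPM in knockouts), and for Cenpe (7.24, 7.19, 5.96 and 8.99 against 9.89, 9.80, 9.64 and 11.5). These 3 of 45 members were the ones without overlap, against 4.19% of all genes.

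Kif23, the kinesin of the midbody in cytokinesis, had 4.27, 3.95, 3.67 and 4.46 CPM in control OLs and 6.51, 6.29, 7.18 and 4.33 in SRF-KO OLs (log2 0.57, adjusted p = 0.293 by edgeR). Its replicate 4 lay within the control range and the other 3 above it. Cdk1 had 15.5, 22.3, 22 and 17.5 CPM in controls and 21.6, 25.8, 28.1 and 32.6 in knockouts (log2 0.48), where replicate 1 lay among the controls and replicate 4 was highest. Mki67 had 18.8, 21.5, 21.1 and 27.3 CPM in controls and 28, 27.2, 28.5 and 29.2 in knockouts (log2 0.34). Control replicate 4, the highest, was just above the lowest knockout. Top2a had 31.4, 39.6, 41.2 and 47.5 CPM in controls and 56.8, 53, 48.8 and 43.7 in knockouts (log2 0.34), with knockout replicates 1 to 3 above every control. By role, the median log2 fold change was 0.52 in the CDK1 group, 0.38 for the partners of the anaphase-promoting complex, 0.32 for the kinesins, 0.29 for the kinases, 0.28 for the centromere and passenger proteins and 0.26 for the spindle assembly proteins.

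The S-phase members had median log2 fold changes of 0.05 for the MCM subunits and 0.22 for both the fork and the nucleotide genes, and whether they differ from the mitotic members was not tested. Rrm2 had 44.5, 47.2, 44.1 and 42.1 CPM in control OLs and 59.7, 64.4, 55.4 and 37.5 in SRF-KO OLs (log2 0.29, adjusted p = 0.552 by edgeR). Knockout replicates 1 to 3 were above every control and replicate 4 was below every control. Mcm6 had 32.9, 31.8, 22.6 and 31.1 CPM in controls and 33.3, 36.2, 36.3 and 15.8 in knockouts, again with replicate 4 lowest of all. Uhrf1 had 10.7, 13, 11.6 and 11.7 CPM in controls and 15.4, 15.4, 13.7 and 11.9 in knockouts (log2 0.28). Mcm5 had a control mean of 14.9 ± 1.12 CPM and a knockout mean of 17.2 ± 2.14 (± SD, n = 4 each, log2 0.22), and E2f1 had 2.94 ± 0.716 and 3.77 ± 0.739 (log2 0.37). Pcna and Mcm2 overlapped between the groups: Pcna had 40.3, 47.5, 40.2 and 37.3 CPM in controls and 42.6, 38.1, 46.4 and 58.9 in knockouts, with replicate 4 highest of all. Mcm2 had 22.4, 21.9, 20.9 and 17.9 CPM in controls and 22.7, 24.5, 24 and 15.1 in knockouts, with replicate 4 lowest of all, and its estimate of 0.07 turned to -0.00 without control replicate 4 or knockout replicate 2. Ccnd1 had 135, 146, 122 and 127 CPM in controls and 183, 181, 173 and 118 in knockouts (log2 0.31, adjusted p = 0.53), where replicates 1 to 3 were above and replicate 4 below every control.

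**Figure D4:**
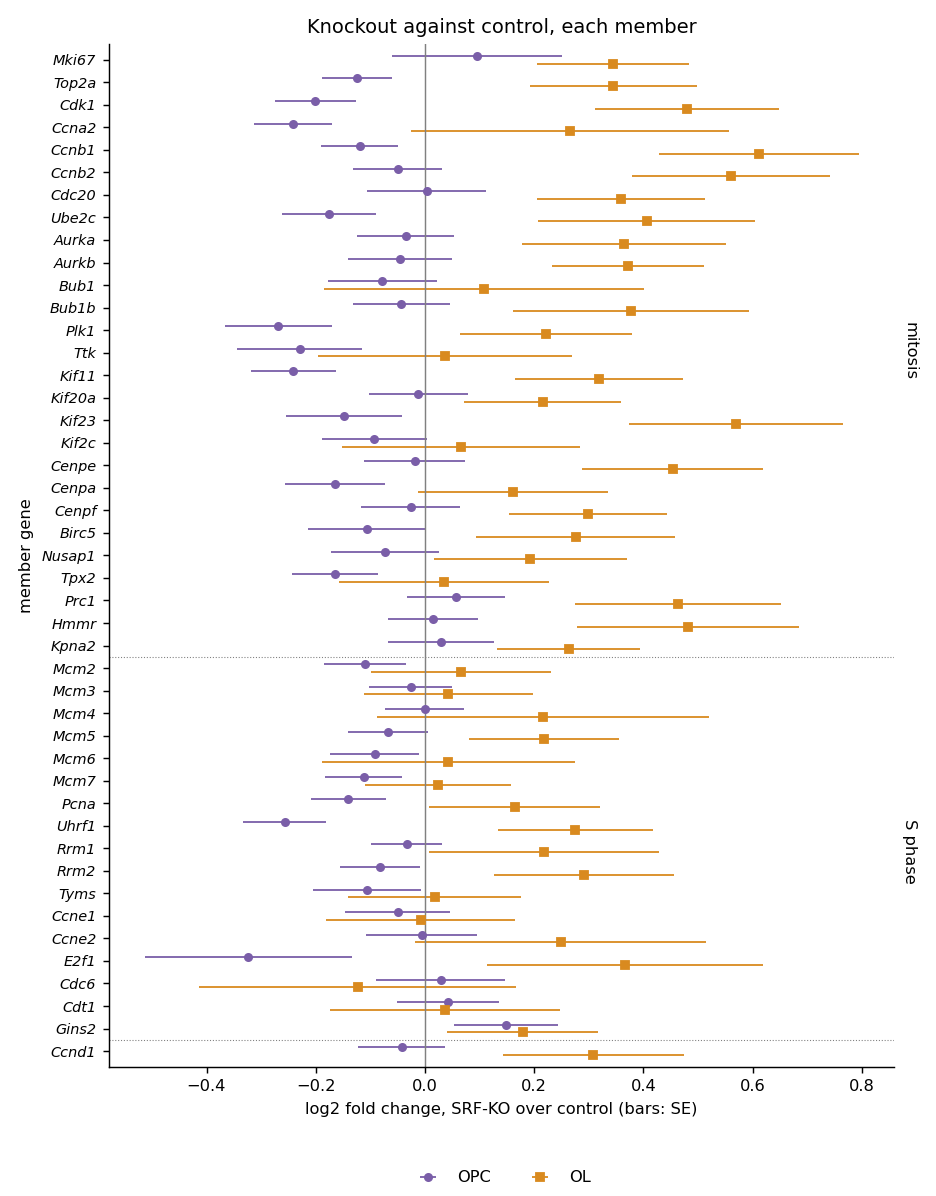
Log2 fold change of each member, SRF-KO over control (horizontal axis, bars are SE), in OPCs (circles) and OLs (squares), with genes ordered by role on the vertical axis. All 27 mitotic OL points lie right of 0 (median 0.34), and OPC points lie close to 0 (median -0.08). No member passed the test in either stage.

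SRF-KO OL replicate 4 stood apart from the other knockouts. Its S-phase sum was 286 CPM, against 391, 412 and 420.3 in the other knockouts and 343, 363, 319 and 330.2 in controls. Its mitotic sum was 415 CPM, against 453, 494 and 479 in the other knockouts and 337, 382, 351 and 388 in controls. Against the mean of the other 3 knockouts, its members ran from -1.72 to 0.76 on the log2(CPM + 1) scale. Over the 45 members this deviation varied with spliced length in that library (Spearman's rho -0.46 across genes of one library, which are not independent replicates): the 15 shortest members had a median of 0.28 and the 15 longest -0.41. In the other 14 libraries the same rho ran from -0.55 to 0.54. A slope of the same sign was present over all genes, with length taken as the mean over a gene's annotated transcripts. Over 15102 genes rho was -0.37 in replicate 4. In the other OL libraries this rho ran from -0.41 (control OL replicate 2) to 0.43 (control OL replicate 4). The interquartile range of the deviation in SRF-KO OL replicate 4 was 0.88 over all genes and 0.78 for the members. It was 0.39 to 0.43 over all genes in the other 3 knockouts. Marker sums also set this library apart, with 209 CPM for 7 neuron markers, against 131 to 174 in the other OL libraries, and 77.6 for 8 endothelial and mural markers, against 39.3 to 55.6. The part of length, depth and cell makeup in these levels was not tested.

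Without that library 5 members were called higher in SRF-KO OLs, against 1.5% of 15434 genes called higher. They were Ccnb1 (log2 0.71, adjusted p = 0.0158), Ccna2 (0.50, adjusted p = 0.0235), Ccnd1 (0.41, adjusted p = 0.0348), Rrm2 (0.41, adjusted p = 0.0354) and Mcm4 (0.45, adjusted p = 0.0411, all edgeR). Ccna2 had 36.4, 35.2, 29 and 34.5 CPM in control OLs and 44.4, 52.2, 50.1 and 15.1 in SRF-KO OLs, so replicate 4 was far below every other OL library. Mcm4 had 30.1, 31, 28.4 and 32.4 CPM in controls and 37.3, 41.7, 50.1 and 12.2 in knockouts, with the same pattern. The medians without that library were 0.31 for mitosis (26 of 27 positive) and 0.17 for S phase (16 of 17), against -0.00 over all genes. The 5 calls rest on leaving out 1 library of 8, a choice planned as one of a series that left out each library in turn.

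**Figure D5:**
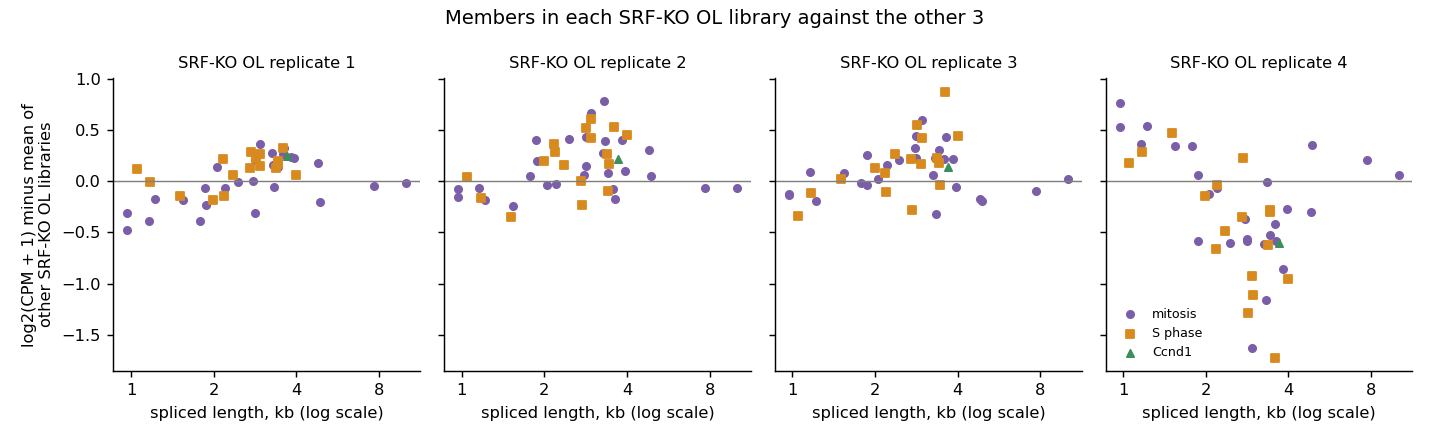
Each SRF-KO OL library against the mean of the other 3: difference in log2(CPM + 1) for each member (vertical axis) by spliced length in kb (horizontal axis, log scale), with mitotic members as circles, S-phase members as squares and Ccnd1 as a triangle. In replicate 4 the points slope down, with a median of 0.28 for the shortest and -0.41 for the longest 15 members.

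Markers of cell types were read in the same libraries. Pdgfra, the receptor of the OPC mitogen PDGF, had 50.5, 52.1, 49.3 and 53.3 CPM in control OLs and 74.2, 73, 66.3 and 54.4 in SRF-KO OLs, without overlap, and did not pass the test (log2 0.39, adjusted p = 0.298 by edgeR). Of the 8 OPC markers, 5 had negative estimates (median log2 -0.19, from -0.62 for Olig1 to 0.39 for Pdgfra). At an unadjusted p under 0.05, 2 were lower and 2 higher, against 5.73% and 5.84% of all genes, and 0 were called. The sum of the OPC markers was 3287 to 4827 CPM in control OLs and 2808 to 3460.3 in knockouts. Summed OL markers were 12251 to 23672 CPM in controls and 9287 to 11991 in knockouts, with 1 of 7 called lower, against 35 of 15193 genes. All 7 estimates were negative (median log2 -0.69), 5 of them at an unadjusted p under 0.05, against 5.73% of all genes lower. Summed astrocyte markers were 16515 to 33950.1 CPM in controls and 8517 to 13413 in knockouts, with 0 of 7 called. Of their estimates 6 were negative (median log2 -0.25, from -1.32 to 0.03), 1 of them at an unadjusted p under 0.05. Summed microglia markers, 9 genes, were 9.21 to 14.1 CPM in controls and 10.5 to 15.8 in knockouts, with up to 3 of them at 0 in a library. The part of cell makeup in the levels of the cell cycle genes was not tested. In the wider lists 0 genes were called in OLs, with 74 of 82 mitotic estimates positive (median 0.28) and 45 of 62 for S phase (median 0.17). At an unadjusted p under 0.05, 19 of the 82 mitotic genes (23.2%) and 5 of the 62 S-phase genes (8.06%) of these lists were higher, against 5.84% of all genes. Kif20b, a kinesin of cytokinesis, had the smallest p of the mitotic list (log2 0.76, adjusted p = 0.161 by edgeR), and Tipin, of the fork protection complex, of the S-phase list (0.64, adjusted p = 0.156).

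Whether the knockout difference itself differed between the stages was tested as an interaction over all 15 libraries, OL effect minus OPC effect. No member passed, 0 of 45 against 18 of 16135 genes (0.112%, edgeR, adjusted p under 0.05). All 27 mitotic estimates and 15 of 17 S-phase estimates were positive, with medians of 0.39 and 0.16 against 0.00 over all genes, and Ccnd1 had 0.34. At an unadjusted p under 0.05, 10 mitotic and 2 S-phase members were positive and none was negative, against 4.6% of all genes positive and 4.65% negative. Kif23 had the smallest p, with an interaction of 0.71 (SE 0.21, adjusted p = 0.24 by edgeR). It had 64.1, 71.8, 78.7 and 67.5 CPM in control OPCs and 65.9, 57 and 68.2 in SRF-KO OPCs, beside the OL values above. Cdk1 followed with 0.66 (adjusted p = 0.271), Ccnb1 with 0.72 (adjusted p = 0.301) and Uhrf1 with 0.52 (adjusted p = 0.307, all edgeR).

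Uhrf1 was lower in every SRF-KO OPC library than in any control OPC, and higher in 3 of 4 SRF-KO OL libraries than in any control OL. DESeq2 called it (0.54, adjusted p = 0.0388) and no other member, beside 68 genes called positive and 101 negative over all genes. Without SRF-KO OL replicate 4 edgeR called 4 members, against 0.437% of 16023 genes called positive: Ccna2 (0.76, adjusted p = 0.0128), Ccnb1 (0.85, adjusted p = 0.0252), Kif23 (0.81, adjusted p = 0.0332) and Uhrf1 (0.60, adjusted p = 0.0361). Srf itself differed in the interaction (log2 3.68, adjusted p = 0.00465 by edgeR), with log2 fold changes of -5.16 in OPCs and -1.45 in OLs. The measured fall of Srf was thus smaller in OLs, where counts were not made as in OPCs. The part of this smaller fall in the interaction was not tested. The virus that carried Cre and the counting, by spliced or genomic gene lengths, also differ between the stages. Their parts cannot be told apart from that of the cells.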

How the data were processed

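PolyA RNA was measured in 15 libraries made by Smart-seq2, which does not mark strand, and read as single reads of 63 bases, per the labels' protocols. Per the submitters' processing notes, the authors' tools were RSEM, STAR and bcl2fastq; GRCm38 and Rnor_6.0 are both listed as builds, without roles, and all gene IDs are mouse. The deposited expected count is the RSEM estimate of reads per gene, with reads shared among genes, and the deposited TPM values divide it by effective length. Deposited FPKM and lengths entered no test. Of 8995 genes with 1 annotated transcript and introns (GENCODE M21), the listed length equalled the spliced length in 89.8% in OPC tables and 0% in OL tables, and the genomic span in 90.0% in OL tables and 0% in OPC tables. It is inferred that OL counts include intron reads, so TPM is not comparable between stages. Overlapping genes and close copies cannot be separated in such counts.

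Expected counts were rounded and fitted with edgeR 4.0.16 in R 4.3.3 over all genes passing filterByExpr, with TMM scaling, quasi-likelihood F-tests and Benjamini-Hochberg adjustment at 0.05. The SE is derived from the test, as the size of the log2 change over the root of its F statistic. Each comparison used its own groups and the interaction all 15 libraries. CPM are TMM-normalised counts, and a pseudocount of 1 entered deviations of single libraries. Lists were described by counts and medians, with no test. 1 OL marker of the original list is not reported here and entered no sum. On simulated counts edgeR recovered known changes (tested for each comparison), which were larger than the members' knockout estimates. Recovery of changes as small as those estimates was not tested. Groups follow the sample titles. The members, lists and designs were chosen with earlier results of these data known. Genes chosen for values were Srf, and the 4 S-phase and 4 mitotic members with the smallest p (knockout) or largest change (stage). Also chosen were Ccnd1, Mki67, Top2a, Cdk1, Pcna, Mcm2, any member called in a knockout comparison and 4 members of the interaction. Some have values per library and others only group means or log2 changes, and Mcm3 has no value of its own. Of the wider lists, the smallest p were taken. Aurkb, Cenpe, Pttg1, Cenpp, Pdgfra, Olig1, Gins2 and Mcm4 were named after their values were seen. Alternatives were library totals, TMM on genes of equal listed length, DESeq2 1.42.0, no count filter, 1 fit of all libraries, a replicate block, TPM sums and leaving out each library.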

Additional observations from a re-analysis of the deposited data

Results flagged for a closer look

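In the SRF-KO OLs 3 single values lay far from the other 3 libraries of their group (the gap divided by the range of the group was above Dixon's 95% critical value). Plk1 was 9.23 CPM in replicate 3, with the others at 8.10 to 8.28. Ccnd1 was 118 CPM in replicate 4, with the others at 173 to 183, and Mcm6 was 15.8 CPM in replicate 4, with the others at 33.3 to 36.3. Of 75 groups of 4 libraries examined 3 met the rule, and chance gives about 1 in 20.

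The median deviation of the 27 mitotic members from the control mean, on the log2 scale, pointed one way in OPCs and the other way in OLs. In SRF-KO OPC replicates 1 to 3 it was -0.14, -0.0044 and -0.12, and in SRF-KO OL replicates 1 to 4 it was 0.27, 0.40, 0.35 and 0.14. The difference between these list medians was not tested, and the value of SRF-KO OPC replicate 2 is close to 0.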

How the results depend on the processing

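All 45 members were called lower in OLs, in controls and in knockouts, under every alternative run, and the knockout comparisons called 0 members under every one except the left-out library in the report. DESeq2 called 70 genes higher and 69 lower in OPC knockouts, 100 and 199 in OL knockouts, 68 and 101 in the interaction, where 1 was a member, and gave stage medians in controls of -3.44 (S phase) and -3.78 (mitosis). With no count filter these counts were 51 and 50, 32 and 97, and 23 and 65, and the medians -3.57 and -3.90. With 1 fit of all libraries they were 19 and 12 in OPCs and 26 and 68 in OLs. Library totals gave 6 genes higher in OPCs, 39 in OLs and 11 in the interaction, medians of 0.38 and 0.54 in OL knockouts, 0.39 and 0.60 in the interaction, -3.85 and -4.18 in the control stage comparison and -3.59 (mitosis) in that of knockouts, and OL sums at 130.02% (S phase) and 146% (mitosis) of control. TMM on genes of equal listed length gave 2278 genes higher and 11606 lower in control OLs and 2206 and 11327 in knockouts, with medians of -5.87 and -6.20 and of -5.50 and -5.74. TPM sums in knockouts were 90.5% of control for S phase in OPCs, and 148% (S phase) and 155% (mitosis) in OLs. With the main scaling the OL sums were 111% (S phase) and 126% (mitosis) of control. The causes were not tested.

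Same-numbered replicates did not deviate together (correlations from -0.28 to 0.09). With the number as a replicate block the calls were 1 higher and 1 lower in OPC knockouts, 3 and 2 in OL knockouts and 0 and 0 in the interaction, and 0 members. The block changed no member's call.

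Leaving out 1 library gave 0 to 1 genes higher and 1 to 3 lower in OPC knockouts, 4 to 231 and 3 to 405 in OL knockouts, and 2 to 70 and 2 to 64 in the interaction, each highest OL and interaction count without SRF-KO OL replicate 4. Members called ranged from 0 to 5 in OLs and from 0 to 4 in the interaction, whose medians ran from 0.10 to 0.30 (S phase) and from 0.33 to 0.50 (mitosis). Of the single genes, 4 estimates changed sign, all near 0 and not called. In OPCs Mki67 ran from -0.0086 (without control replicate 3) to 0.26, and Ccnd1 from -0.092 to 0.051 (without knockout replicate 2). In OLs Mcm2 ran from -0.0047 (without knockout replicate 2, and -0.0045 without control replicate 4) to 0.17. Of 368 such single-gene values 6 passed the threshold newly, all without SRF-KO OL replicate 4. Members had as few as 10 counts in an OL library, which limits the precision of their values there.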
